A study of Mus musculus with 10 samples.

Results

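Inhibitory surface receptors, with 2 ligands of such receptors, were followed in plasma cells of mouse bone marrow as a given set of 10 genes: Fcgr2b, Lag3, Cd274, Lair1, Pdcd1, Tigit, Cd200, Cd72, Siglecg and Pirb. A gene was measured where a probe set of the array was annotated to that gene alone, which held for 9 of the 10 members out of 22180 such genes in all. Each of the 9 had 1 probe set. The probe set of Cd72 is annotated to a second gene as well, and Cd72 is therefore not analysed here.

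Plasma cells came from the bone marrow of B6.BLIMP1 +/GFP mice, in which a GFP reporter at the Blimp1 locus marks cells that express this plasma cell transcription factor, and were sorted as B220-negative and Blimp1-positive. All mice of both groups carried this allele. Mice were untreated (5 arrays) or given rapamycin, an inhibitor of mTOR complex 1 (5 arrays), and each array held RNA from a separate mouse. The labels state no dose, duration, age or sex. The values are log2 signals after RMA, which the authors had computed, so that a difference of 1 is a doubling.

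Inhibitory receptors set a limit on signals from antigen receptors, Fc receptors and cytokine receptors. Most carry tyrosine motifs in the cytoplasmic tail that, once phosphorylated, recruit phosphatases such as SHP-1 (Ptpn6) and SHIP-1 (Inpp5d). Lag3, Tigit and PD-1 (Pdcd1) are best known from T cells, Siglecg and Cd72 from B cells, and Pirb and Lair1 from myeloid cells and B cells. On mouse plasma cells, Fcgr2b is known as a receptor through which immune complexes can limit survival, and Lag3 as a marker of regulatory plasma cells that also carry CD200 and the PD-1 ligands.

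Cd200 and Tigit are shown first by sequence, because they had the largest positive differences among the members and both lie on chromosome 16, with 22 annotated protein-coding genes between them. The 300 bases around a start given for each gene (250 before and 50 after), from RefSeq on GRCm38.p6, are chr16:45409004-45409303 on the minus strand for Cd200 and chr16:43664135-43664434 on the minus strand for Tigit. For Tigit this start lies inside the annotated span of the gene and not at its outer end. Capitals mark the GC box GGGCGG, searched on both strands.
Cd200: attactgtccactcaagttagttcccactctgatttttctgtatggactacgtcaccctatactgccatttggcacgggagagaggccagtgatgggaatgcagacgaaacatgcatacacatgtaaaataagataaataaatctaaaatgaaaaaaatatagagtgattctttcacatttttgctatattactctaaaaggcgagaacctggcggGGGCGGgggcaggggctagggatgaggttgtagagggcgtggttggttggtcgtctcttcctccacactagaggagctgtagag
Tigit: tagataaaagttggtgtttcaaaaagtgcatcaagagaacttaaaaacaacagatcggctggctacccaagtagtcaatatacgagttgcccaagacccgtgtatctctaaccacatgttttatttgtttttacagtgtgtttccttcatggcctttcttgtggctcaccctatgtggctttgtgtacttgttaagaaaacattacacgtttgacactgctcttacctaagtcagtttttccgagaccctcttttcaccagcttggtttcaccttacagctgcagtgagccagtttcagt
The Cd200 window holds 1 GC box and 8 CG dinucleotides and that of Tigit 0 and 5, against a median of 7 CG dinucleotides over all 32851 promoters of the table. RefSeq promoters were matched for 8 of the 9 measured members (not Lag3). A GC box was found for 3 of them, Cd200, Cd274 and Pdcd1, and in 35.7% of all promoters. The starts used for Cd274 and Lair1 also lie well inside the annotated spans of these genes. None of the 8 held the E-box CACGTG (7.15% of all promoters), the FOXO-type motif TGTTTAC (3.65%) or the TATA box TATAAA (13.6%), each searched on both strands. Pirb and Lair1 lie close together on chromosome 7, with 5 annotated protein-coding genes between them, among them the paired activating receptors Pira1 and Pira2.

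Before the comparison, 3 facts of the arrays bear on every value. Xist was at 3.83 ± 0.10 on untreated and 9.24 ± 0.28 on rapamycin arrays (SD, n = 5 each), and Eif2s3y, a Y-linked gene, at 8.03 ± 0.46 and 3.84 ± 0.24, with the Y-linked Kdm5d and Uty higher on untreated arrays too, so that rapamycin and sex cannot be told apart. Rapamycin replicate 4 stood apart on the first principal component, with a score of 22.3 against 4.17 to 8.85 for the other rapamycin arrays. As a mark of dim signal, the 95th percentile of 1390 olfactory and vomeronasal receptor genes, which plasma cells are not known to use, was 5.17 on untreated and 5.24 on rapamycin arrays. It is called the dim limit below.

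Of the 9 measured members, 7 lay above the dim limit in at least 1 group, against 11260 of all 22180 genes. They were Fcgr2b, Tigit, Cd200, Cd274, Lag3, Siglecg and, only just, Pirb. Pdcd1 and Lair1 lay below it in both groups. Signals of different probe sets cannot be ranked as amounts of RNA, so the levels are set against the dim limit and not against each other.

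No member passed the test between rapamycin and untreated arrays. In limma, fitted on all 22180 genes, 0 of 9 had a Benjamini-Hochberg adjusted p under 0.05, where 0.153% of all genes did, 0.126% higher and 0.0271% lower. Before adjustment, p was under 0.05 for 2 members with higher means under rapamycin (Cd200 and Tigit) and 1 with a lower mean (Lag3), where 9.39% of all genes passed, 6.13% higher and 3.26% lower. The groups were without overlap for 0 of the 9 members, against 1.48% of all genes on the higher side and 0.586% on the lower side. The median log2 difference was 0.01 over the 9 members and 0.01 over all genes. Intervals given below are the fit's 95% confidence intervals of the log2 difference.

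**Figure D1:**
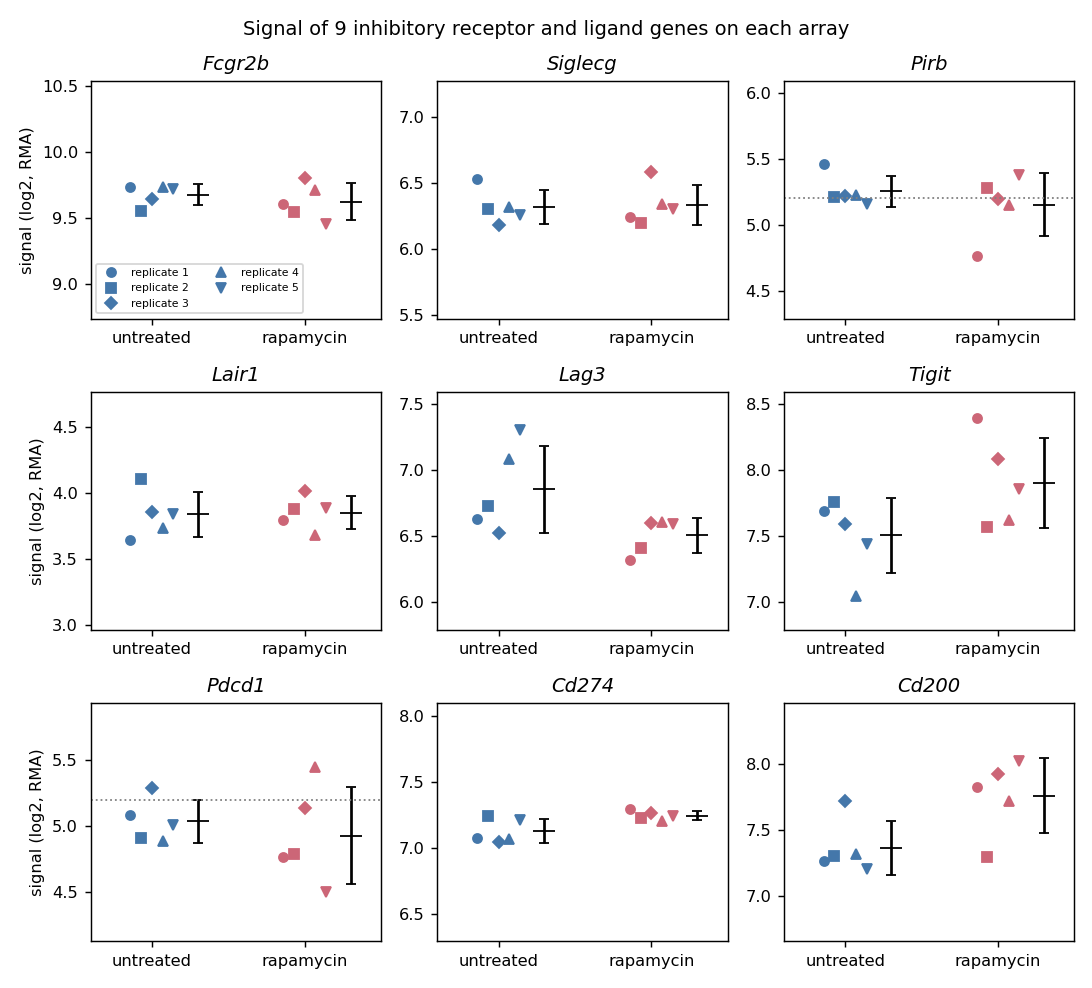
Log2 RMA signal of the 9 measured members on each of the 10 arrays (symbols, by replicate number), with the mean ± SD of each group (bars, n = 5) and the dim limit over all arrays (dotted line, where it falls in the panel); every y axis spans the same range. Rapamycin arrays of Tigit and Cd200 lie mostly high, those of Lag3 lie at the low end of the untreated arrays, and those of Cd274 lie between 7.21 and 7.29.

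Among the receptors of B cells and myeloid cells, Fcgr2b, the inhibitory Fc receptor for IgG, was well above the dim limit. Its signal was 9.73, 9.56, 9.64, 9.74 and 9.73 on untreated replicates 1 to 5 and 9.61, 9.55, 9.81, 9.72 and 9.46 on rapamycin replicates 1 to 5. The rapamycin arrays lay on both sides of the untreated ones, holding both the highest and the lowest value. The log2 difference was -0.05 (95% interval -0.22 to 0.11, adjusted p = 0.902 in limma), which as a ratio of rapamycin to untreated is an interval of 0.86 to 1.08. Its probes can be shared in part with other Fcgr genes, whose extracellular parts are alike.

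Siglecg, a sialic acid-binding lectin that dampens B cell receptor signals, was likewise near equal in the groups. Untreated replicates 1 to 5 were at 6.53, 6.31, 6.18, 6.32 and 6.26, and rapamycin replicates 1 to 5 at 6.24, 6.20, 6.58, 6.34 and 6.30. A single array of each group, untreated replicate 1 and rapamycin replicate 3, lay above the rest, which lay between 6.18 and 6.34. The difference was 0.02 (interval -0.19 to 0.22, adjusted p = 0.981 in limma).

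Pirb, a receptor for MHC class I whose probes can be shared with the Pira genes, stayed close to the dim limit. Signals were 5.46, 5.21, 5.22, 5.22 and 5.16 on untreated and 4.76, 5.28, 5.20, 5.15 and 5.38 on rapamycin replicates 1 to 5. The spread came mainly from untreated replicate 1, the highest, and rapamycin replicate 1, the lowest. The difference was -0.10 (interval -0.33 to 0.13, adjusted p = 0.853 in limma) and was -0.003 without rapamycin replicate 1. Lair1, a collagen receptor, ranged from 3.64 to 4.10 on untreated and from 3.68 to 4.02 on rapamycin arrays, below the dim limit on every array. Its difference of 0.01 (adjusted p = 0.982 in limma) says little about a transcript at this signal.

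Of the receptors best known from T cells, Tigit, which binds Pvr and Nectin2 and competes with the activating receptor Cd226, was above the dim limit on every array. Untreated replicates 1 to 5 were at 7.68, 7.75, 7.59, 7.04 and 7.44 and rapamycin replicates 1 to 5 at 8.39, 7.57, 8.08, 7.62 and 7.85. All 5 rapamycin arrays were above the untreated mean and 3 were above every untreated array, while replicates 2 and 4 lay within the untreated range. The group means were 7.50 ± 0.28 and 7.90 ± 0.34 (SD, n = 5 each), a difference of 0.40 (SE 0.16, interval 0.06 to 0.73, unadjusted p = 0.0226, adjusted p = 0.423 in limma). The two-sided exact permutation test gave p = 0.0873, where the smallest p that 5 against 5 arrays allow is 0.00794. Without rapamycin replicate 1 the difference was 0.28 and the unadjusted p in limma 0.075, and without rapamycin replicate 4 the difference was 0.47.

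Lag3, a receptor for MHC class II, lay the other way. Its signal was 6.63, 6.72, 6.52, 7.08 and 7.31 on untreated and 6.32, 6.41, 6.60, 6.61 and 6.59 on rapamycin replicates 1 to 5. All 5 rapamycin arrays were below the untreated mean, but only 2 were below every untreated array, and untreated replicates 4 and 5 stood above the other 8 arrays. The means were 6.85 ± 0.33 and 6.51 ± 0.13 (SD, n = 5 each), a difference of -0.35 (SE 0.14, interval -0.63 to -0.06, unadjusted p = 0.0207, adjusted p = 0.413 in limma), and the two-sided exact permutation p was 0.0556. Without untreated replicate 5 the difference was -0.23 and the unadjusted p in limma 0.0672, and without rapamycin replicate 4 it was -0.37.

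Pdcd1, which encodes PD-1, was not above the dim limit as a group mean. Untreated arrays ranged from 4.89 to 5.29 and rapamycin arrays from 4.50 to 5.45, where the highest value was that of replicate 4. The difference was -0.11 with all arrays (interval -0.42 to 0.20, adjusted p = 0.885 in limma) and ranged from -0.24 without rapamycin replicate 4 (unadjusted p = 0.0693) to -0.003 without rapamycin replicate 5 (unadjusted p = 0.983).

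The other 2 members are ligands. Cd200 encodes a membrane glycoprotein that signals to the inhibitory receptor Cd200r1 on myeloid cells. It was at 7.26, 7.30, 7.72, 7.32 and 7.20 on untreated and 7.83, 7.29, 7.93, 7.72 and 8.03 on rapamycin replicates 1 to 5. Of the rapamycin arrays, 4 lay above every untreated array and replicate 2 lay among them, while untreated replicate 3 lay just below the lowest of these 4. The means were 7.36 ± 0.20 and 7.76 ± 0.28 (SD, n = 5 each), a 1.32-fold higher mean signal with rapamycin (log2 difference 0.40, SE 0.13, interval 0.12 to 0.68, unadjusted p = 0.00865, adjusted p = 0.306 in limma). In the two-sided exact permutation test p was 0.0476, under 0.05 for this member alone of the 9. Without rapamycin replicate 2 the difference was 0.52 (unadjusted p = 4.46e-04, adjusted p = 0.134 in limma), and without rapamycin replicate 4 it was 0.41.

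Cd274, which encodes the PD-1 ligand PD-L1, had the smallest spread of the members. Untreated replicates 1 to 5 were at 7.07, 7.24, 7.04, 7.07 and 7.21 and rapamycin replicates 1 to 5 at 7.29, 7.23, 7.26, 7.21 and 7.24. All 5 rapamycin arrays were above the untreated mean and 2 were above every untreated array. The difference was 0.12 (interval -0.05 to 0.29, adjusted p = 0.713 in limma), with a two-sided exact permutation p of 0.0556. The SD within groups was 0.07, lower than that of all but 1.6% of the 500 genes nearest to it in signal, whose median SD was 0.16. The members differed in this respect: Tigit, with an SD of 0.31, was more variable than 96.8% of its 500 neighbours in signal, Pdcd1 (0.28) than 94.4%, Cd200 (0.25) than 88.8%, Lag3 (0.25) than 86%, and Fcgr2b (0.11) than 31.1%.

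**Figure D2:**
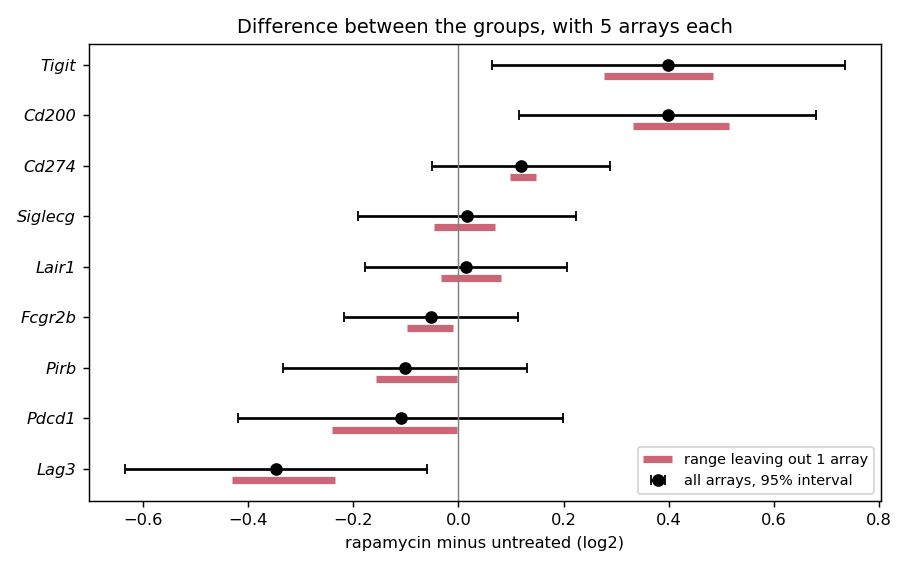
Log2 difference, rapamycin minus untreated, of the 9 measured members (points) with the 95% confidence interval of the fit over all arrays (black bars, n = 5 each) and the range of the difference when 1 array is left out (red bars). The intervals of Tigit, Cd200 and Lag3 exclude 0 before adjustment over all genes, and their red ranges stay on their side of 0, as do those of Cd274, Fcgr2b, Pirb and Pdcd1, while Siglecg and Lair1 cross it.

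**Figure D3:**
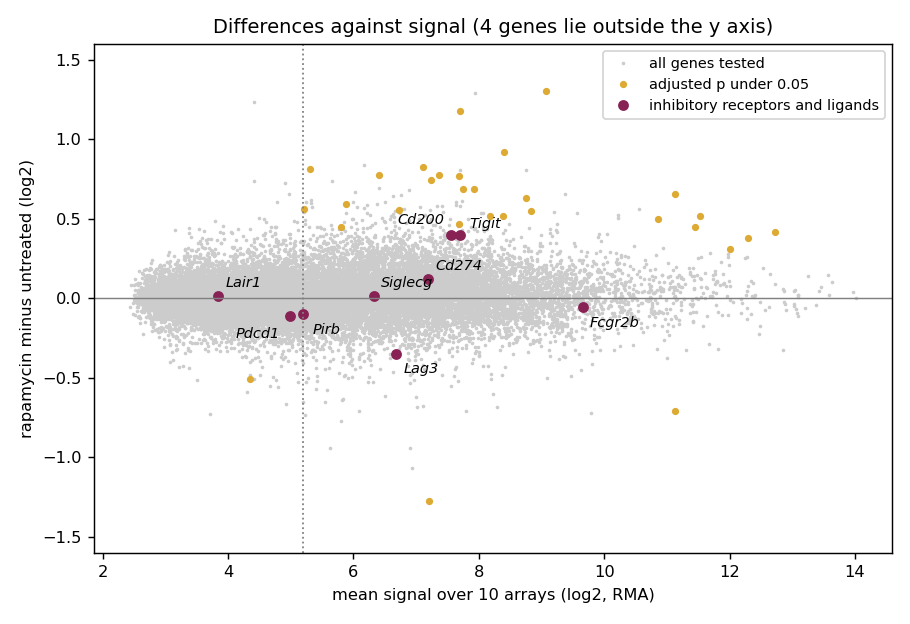
Log2 difference, rapamycin minus untreated, against the mean signal over 10 arrays for all 22180 genes (grey), those with an adjusted p under 0.05 (yellow) and the 9 measured members (purple), with the dim limit as a dotted line. Members lie inside the cloud of all genes, and Lair1, Pdcd1 and Pirb lie at or below the dim limit.

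Markers of other cells that carry these receptors were examined beside them, since in a bulk sample fewer cells of a type and less RNA per cell cannot be told apart. All 14 plasma cell markers were above the dim limit, with list means of 10.89 to 11.03 on untreated and 10.98 to 11.14 on rapamycin arrays. Of these 14, 0 passed the test in limma, and 3 were higher and 1 lower before adjustment. A difference above 0 was seen for 11 of the 14, and for 11769 of all 22180 genes. The groups were without overlap for 2 of the 14, both higher with rapamycin, and on that side for 1.48% of all genes. The 2 were Prdm1 (difference 0.41, adjusted p = 0.117 in limma) and Mzb1 (0.11, adjusted p = 0.425 in limma). Of 16 measured T cell markers 0 passed the test in limma (2 higher and 0 lower before adjustment, at p under 0.05), and the list mean was 5.31 to 5.44 on untreated and 5.26 to 5.48 on rapamycin arrays. Of these 16, 9 were above the dim limit in at least 1 group, among them Cd4 (5.81 on untreated and 6.22 on rapamycin arrays), Cd8b1 (5.72 and 5.89), Cd2 (6.75 and 6.74), Lat (7.56 and 7.67) and Ctla4, and Cd3g (5.34 and 5.03) on untreated arrays. The other 7 were below it in both groups, namely Cd3d, Cd3e, Cd8a, Foxp3, Icos, Themis and Zap70. The part of T cell RNA in the values of Tigit and Lag3 was not tested. Of 10 NK cell markers 0 passed (1 higher and 1 lower before adjustment), and list means were 4.56 to 4.75 and 4.67 to 4.82. Of these 10, 7 were below the limit, Ncr1 and Klrb1c among them. The other 3 were above the limit in both groups, namely Prf1 (8.36 on untreated and 7.94 on rapamycin arrays), Gzma (6.42 and 6.86) and Nkg7. Gzma was the gene higher before adjustment (0.43), and Prf1 the lower one (-0.42). Of 18 monocyte and macrophage markers 0 passed (1 higher and 1 lower before adjustment) and 11 were below the limit, Csf1r, Adgre1 and Cd14 among them, with list means of 5.16 to 5.31 and 5.14 to 5.30. In at least 1 group the other 7 were above it. They were Cd68 (8.17 on untreated and 7.84 on rapamycin arrays), Lyz2 (6.56 and 6.65), Itgam (6.41 and 6.09), Cx3cr1 (6.41 and 6.51), C1qa, Ly86 and Mpeg1. The part of NK cell, monocyte and macrophage RNA in the values of the members was not tested.

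Of 15 measured B cell markers 11 were above the dim limit and 0 passed the test (2 higher and 3 lower before adjustment). List means were 7.18 to 7.34 on untreated and 7.17 to 7.31 on rapamycin arrays. Above the limit were, among others, Cd79a (11.37 and 11.49), Cd79b (10.90 and 10.82), Blk (7.95 and 7.64), Ms4a1 (7.70 and 7.56) and Ebf1 (7.79 and 8.15). Pax5, Spib, Fcer2a and Cr2 were below it. The part of B cell RNA in the values of Fcgr2b, Siglecg and the other members was not tested. The plasmacytoid dendritic cell list, included because such cells carry Lag3, had 1 of 9 members past the test, Ly6d (2 higher and 1 lower before adjustment), with list means of 7.03 to 7.15 and 7.04 to 7.19. Ly6d was at 10.79 on untreated and 11.45 on rapamycin arrays (adjusted p = 5.01e-04 in limma), without overlap. It also passed with any 1 array left out. On this list 6 of 9 genes were above the dim limit, namely Bst2, Cox6a2, Irf8, Ly6d, Tcf4 and Tlr9, and 3 were below it, Siglech, Ccr9 and Klk1. Bst2 was the other gene higher before adjustment (0.26), and Cox6a2 the lower one (-0.38). Which cells gave the Ly6d signal was not tested, nor was the part of plasmacytoid dendritic cell RNA in the values of Lag3. Erythroid markers had only 3 measured members, 0 past the test or at an unadjusted p under 0.05, and list means of 5.09 to 5.23 and 4.89 to 5.17.

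Granulocyte lists lay somewhat higher on rapamycin arrays, with list means that overlapped between the groups. Neutrophil markers had list means of 5.93 to 6.52 on untreated and 6.31 to 6.81 on rapamycin arrays. Differences were above 0 for all 16, and for 11769 of all 22180 genes. Of the 16, 0 passed the test in limma. Before adjustment 5 were higher at p under 0.05, where 6.13% of all genes were. Ly6g and Fcnb were below the dim limit in both groups, and the other 14 were above it in at least 1 group. Chil3 (4.98 on untreated and 5.34 on rapamycin arrays) and Retnlg (5.03 and 5.28) were above it on rapamycin arrays only. Untreated replicate 3 had the lowest neutrophil mean of all arrays, 5.93. Of 7 eosinophil markers 1 passed, Prg2, at 12.51 on untreated and 12.93 on rapamycin arrays (adjusted p = 0.0473 in limma), and list means were 5.99 to 6.23 and 6.11 to 6.38. Leaving out untreated replicate 2, untreated replicate 3 or any rapamycin array ended the Prg2 call, and its adjusted p then reached 0.121 in limma. Prg2, Prg3, Il5ra and Siglecf, 4 of the 7, were above the dim limit, and Epx, Ccr3 and Ear6 below it. Of the 7 differences 6 were above 0, from 0.42 for Prg2 and 0.27 for Prg3 to 0.01 for Ccr3, and that of Epx was -0.13. Their median was 0.07. Which cells gave the Prg2 signal was not tested. The part of granulocyte RNA in the values of Cd200, Tigit and Lag3 was not tested.

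**Figure D4:**
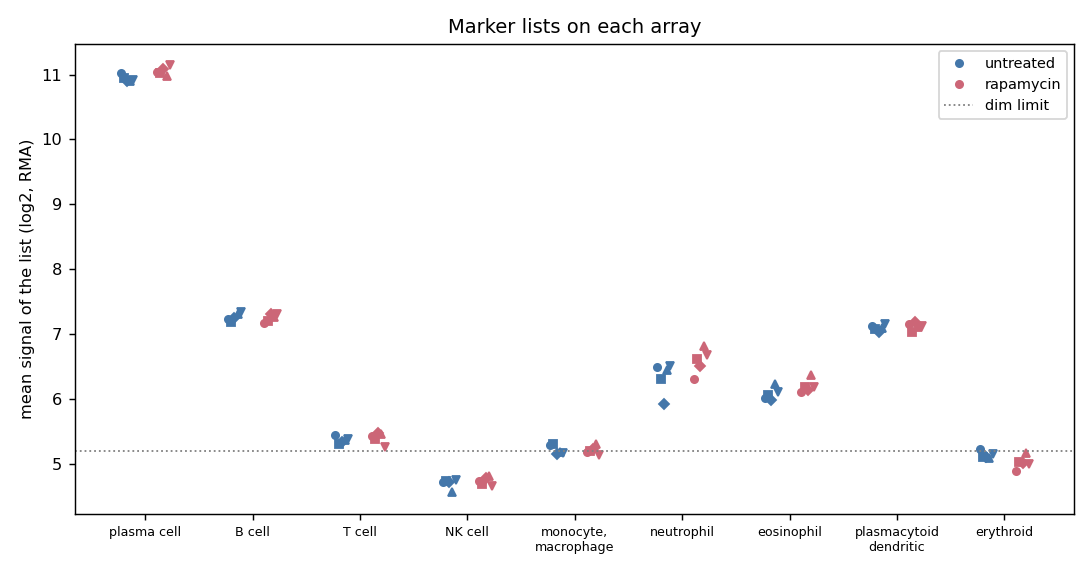
Mean log2 RMA signal of 9 lists of cell type markers on each of the 10 arrays (blue, untreated; red, rapamycin; symbols by replicate number as in the plot of members by array), with the dim limit as a dotted line. The plasma cell list is the brightest, NK cell and erythroid lists lie near or below the dim limit, and the neutrophil list has untreated replicate 3 lowest and rapamycin replicate 4 highest.

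Further inhibitory receptors were measured with 27 genes, of which 17 lay above the dim limit in at least 1 group and 0 passed the test in limma. An unadjusted p under 0.05 in limma was seen for 1 higher and 2 lower genes. Ctla4, which competes with Cd28 for Cd80 and Cd86, was at 7.78 ± 0.10 on untreated and 8.14 ± 0.23 on rapamycin arrays (SD, n = 5 each), with a difference of 0.37 (SE 0.11, adjusted p = 0.22 in limma) and no overlap between the groups. Lilrb4a, an inhibitory receptor of myeloid and other cells, lay below the dim limit with a difference of -0.51. Cd22, a sialic acid-binding coreceptor of B cells, differed by -0.44, and Fcrl5, an Fc receptor-like protein, by -0.21. Fcrl5 was above the dim limit on untreated arrays only (5.44 and 5.23). The list's median difference was 0.01, as over all genes.

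Ligands of these and related receptors showed a similar picture, with 0 of 19 past the test in limma, while an unadjusted p under 0.05 was seen for 1 higher and 2 lower genes. Pvr, the main ligand of Tigit, was at 5.87 ± 0.48 and 5.21 ± 0.24 (SD, n = 5 each), a difference of -0.65 (SE 0.19, adjusted p = 0.213 in limma), at the dim limit on rapamycin arrays. In the authors' filtered table, where 10720 genes were tested, Pvr passed (adjusted p = 0.032 in limma). The rule of that filter was not given. The 4 members it kept, Tigit, Pdcd1, Lag3 and Cd200, are those with the largest SD within groups. Its rows may thus have been picked by spread over these same arrays, and a call among them is no independent result. H2-Aa, a chain of the MHC class II molecules that Lag3 binds, differed by 0.23. H2-Ab1, another chain of these molecules, was at 11.71 and 11.76 and differed by 0.04. Cd86, a ligand of Cd28 and Ctla4, differed by -0.27 and was above the dim limit on untreated arrays only (5.39 and 5.12). Sema4d, a ligand of Cd72, differed by 0.20. Pdcd1lg2, the other PD-1 ligand, was at 6.99 in both groups with a difference of 0.003. The median difference of the list was 0.003.

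Of 17 measured genes listed as cytosolic effectors, 14 were above the dim limit, against 11260 of all 22180 genes. The list includes adaptors of SLAM receptors beside effectors of inhibitory receptors. Of these 17, 0 passed the test in limma, and before adjustment p was under 0.05 for 1 higher and 0 lower genes. That gene was Sh2d1b1, which encodes the SLAM-receptor adaptor EAT-2. It was at 6.07 ± 0.21 and 6.66 ± 0.35 (SD, n = 5 each), with a difference of 0.59 (SE 0.15, adjusted p = 0.151 in limma). In the filtered table its adjusted p in limma was 0.0291, with the limit given above for Pvr. The phosphatase SHP-1 (Ptpn6) differed by 0.18, the ubiquitin ligase Cblb by 0.20, and Sh2d1a, an adaptor below the dim limit, by -0.11. Inpp5d, the SHIP-1 phosphatase that Fcgr2b recruits, was at 8.65 and 8.67. The list's median difference was 0.02.

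Activating counterparts, such as Fc receptors with the common gamma chain, gave 0 of 14 past the test in limma, and before adjustment p was under 0.05 for 1 higher and 1 lower gene. Fcer1g, the gamma chain itself, was at 8.15 ± 0.41 and 7.44 ± 0.66 (SD, n = 5 each), a difference of -0.71 (adjusted p = 0.366 in limma), while Cr2, a complement receptor that differed by 0.37, was below the dim limit, as were Cd200r4 (0.13) and Fcgr4 (-0.13). Cd226, the activating competitor of Tigit, was below the limit in both groups. Of 8 other genes known from regulatory B cells and plasma cells, 0 passed in limma, with 1 higher and 1 lower before adjustment. Havcr1, which encodes TIM-1, differed by -0.53 and was above the dim limit on untreated arrays only (5.39 and 4.86). Ebi3, a cytokine subunit of IL-35, differed by 0.30. Its partner Il12a, below the dim limit at 4.63 and 4.90, differed by 0.27, and Il10, below it at 4.27 and 4.50, by 0.23. Median differences were -0.01 and 0.04 for these lists.

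**Figure D5:**
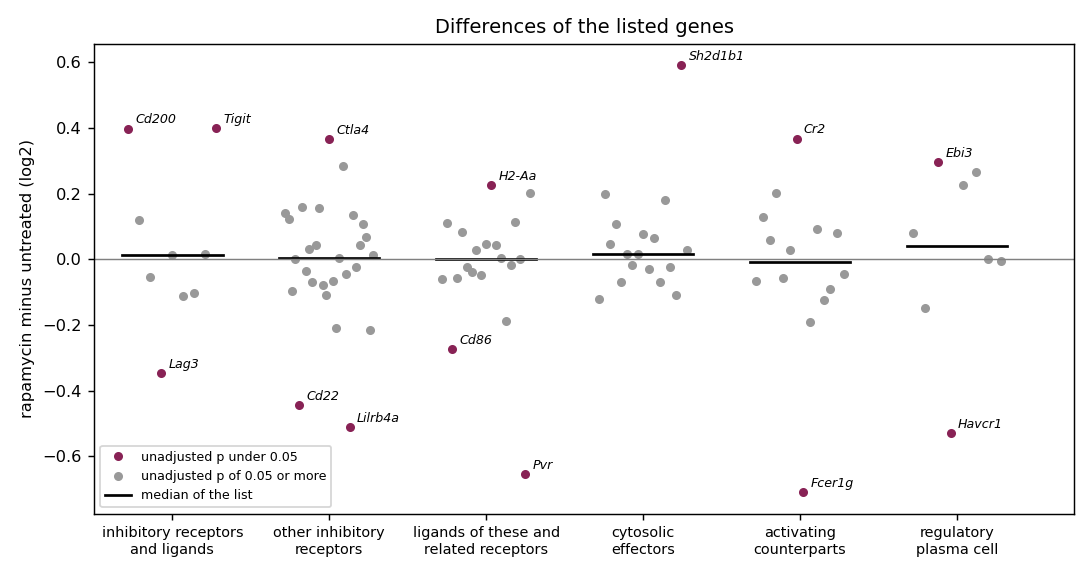
Log2 difference, rapamycin minus untreated, of every measured gene of 6 lists (points; purple where the unadjusted p is under 0.05, and named), with each list's median (black line). No gene shown has an adjusted p under 0.05 over all 22180 genes, and the medians lie between -0.01 and 0.04.

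Genes most like a member were sought for Fcgr2b, Tigit and Cd200, the members with the highest mean signal, by Pearson's r of the deviations from the group means over 10 arrays, among 10525 named genes above the dim limit. The highest were Gnpda1 (r = 0.96), Tmem170b (r = 0.94) and Psd (r = 0.91) for Fcgr2b. For Tigit they were Foxp4 (r = 0.93), Abca2 (r = 0.93) and Per3 (r = 0.92), and for Cd200 N6amt1 (r = 0.93), Ralgapa1 (r = 0.91) and Nfkbiz (r = 0.90). They were picked as the highest of many over few arrays that share one normalization, and are given as a description. No other member was among them, and no gene was in more than 1 of these lists.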

How the data were processed

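Values deposited by the authors are log2 signals. Per the submitters' processing notes, RMA was used, a method of background correction, quantile normalization between arrays and summary per probe set; its version is not stated. All 10 arrays of the whole table (41345 rows) were used as deposited. The authors' filtered table (12280 rows, identical values) served as an alternative; its rule was not given. Probe sets with 1 gene symbol in the platform annotation (23521; 1820 had several symbols and 16004 none) were reduced to the one with the highest mean per gene, 22180 genes. Quantile normalization hides a shift of all transcripts.

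Groups and replicate numbers come from the sample titles. Genes were compared with limma 3.58.1 (R 4.3.3; lmFit, eBayes with trend, two-sided, no covariate), Benjamini-Hochberg adjusted over all genes, and called at an adjusted p under 0.05. The fit was tested on simulated data. Alternatives varied the replicate block, variance model, array weights, choice of probe set, filters, normalization, threshold and the arrays included. The number of arrays limits the precision.

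All members are named, and every array is given for those above the dim limit in a group. Per other list, genes that passed and up to 4 with the smallest p are named. Inpp5d, Cd226, Pdcd1lg2, H2-Ab1 and the marker genes set against the dim limit or without overlap were named after their values were seen. Members and lists were chosen with earlier results of these data known. Figures: matplotlib 3.10.9, Python 3.11.15.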

Additional observations from a re-analysis of the deposited data

Results flagged for a closer look

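Each member was checked for an array that lay far from the other 4 of its group (gap over range above 0.71, 18 groups), and chance flags about 1 group in 20. Cd200 was at 7.72 on untreated replicate 3, against 7.20 to 7.32 on the other untreated arrays. Pirb was at 5.46 on untreated replicate 1, against 5.16 to 5.22 on the others.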

How the results depend on the processing

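No member was called in any of the 20 alternatives, 10 of which left out an array; the lowest adjusted p in limma was 0.134 (Cd200 without rapamycin replicate 2). Calls over all genes numbered 34, against 13 with every probe set tested, 21 with the replicate block, 51 with array weights, 78 among genes above the dim limit, 107 in the filtered table, 92 at an adjusted p under 0.1 and 20 to 39 leaving out an array. The replicate block left 0 members called (Cd200, adjusted p = 0.31). Same-numbered arrays did not deviate together over the genes above the dim limit (r from -0.08 to 0.04). This measure over many genes cannot exclude a pairing that acts on some of them. Among the other listed genes, Sh2d1b1 was called higher and Pvr lower, 1 each, with the authors' filtered rows, against 0 and 0. Those rows may have been picked by spread over the same arrays. Members with p under 0.05 numbered 1 by the exact permutation test and 3 by limma, unadjusted. Siglecg turned to -0.0149 with quantile normalization repeated and ranged from -0.0458 to 0.0695 leaving out an array, and Lair1 from -0.0334 to 0.081. The other 7 members kept their direction in every alternative that tested them. The cause of these shifts was not tested.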
